A study of Mus musculus with 6 samples.

Results

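The genes described are those of the IL-12 family cytokine subunits, Il12a, Il12b, Il23a, Il27 and Ebi3, in macrophages grown from bone marrow. They were taken by symbol from a table of read counts, and all 5 were found among its 46095 genes. Of these genes 13215 had enough counts to be tested, 4 of the 5 subunits among them. RNA sequencing compared animals lacking Cd226 (Cd226-/-, 3 libraries) with wild-type animals (WT, 3 libraries), all C57BL/6 mice aged 56 days. Cd226 encodes the activating adhesion receptor CD226, also called DNAM-1. Marrow cells of both genotypes had 7 days of M-CSF at 20 ng/ml, which turns them into macrophages, and then 24 h of IFN-γ at 20 ng/ml with LPS at 100 ng/ml, the stimulus of M1 macrophages, which are inflammatory. There was no unstimulated group, so induction by the stimulus was not measured. How the Cd226 allele was made, and whether replicates came from separate mice or cultures, is not given in the sources used here. The p-values therefore measure only the spread between these libraries, which may be technical.

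Cytokines of the IL-12 family are pairs of an alpha chain and a beta chain that share chains with one another. Il12a encodes p35 and Il12b encodes p40, which together form IL-12, the cytokine that drives T cells and NK cells to make IFN-γ. The same p40 joins p19, the product of Il23a, in IL-23, which maintains Th17 cells. Il27 encodes p28, which joins the EBI3 chain in IL-27, a cytokine with both activating and restraining effects on T cells, and p35 joins EBI3 in IL-35. Macrophages and dendritic cells are the usual sources of IL-12, IL-23 and IL-27. The transcripts of both chains of a pair must be present for the pair to be made, and these data measure transcripts, not secreted protein.

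Il12a lies on chromosome 3 (68690644 to 68698547, plus strand, GRCm38), Il12b on chromosome 11 (44400063 to 44414033, plus strand), Il23a on chromosome 10 (128296139 to 128298752, minus strand), Il27 on chromosome 7 (126589010 to 126594941, minus strand) and Ebi3 on chromosome 17 (55952640 to 55957022, plus strand), by GENCODE M21. The 5 genes are thus on 5 chromosomes. The promoter windows of 3 subunits that rose by unequal amounts are shown so that their letters can be set side by side. They come from RefSeq (GRCm38.p6) and run from 250 bases before to 50 bases after an annotated start; RefSeq's table matched 3 of the 5 genes. Capitals mark matches to the motifs described after them. All 4 are on the plus strand; Il12a has 2 annotated starts and so 2 windows. The Il12b window is chr11:44399813-44400112, the Ebi3 window is chr17:55952373-55952672 and the Il12a windows are chr3:68690394-68690693 at the earlier start and chr3:68691174-68691473 at the later start.
Il12b: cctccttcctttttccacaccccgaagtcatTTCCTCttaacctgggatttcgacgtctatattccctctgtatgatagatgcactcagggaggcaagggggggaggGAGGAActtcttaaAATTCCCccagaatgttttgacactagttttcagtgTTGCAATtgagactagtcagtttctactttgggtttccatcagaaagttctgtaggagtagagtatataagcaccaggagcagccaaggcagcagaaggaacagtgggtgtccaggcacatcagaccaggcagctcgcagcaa
Il12a, earlier start: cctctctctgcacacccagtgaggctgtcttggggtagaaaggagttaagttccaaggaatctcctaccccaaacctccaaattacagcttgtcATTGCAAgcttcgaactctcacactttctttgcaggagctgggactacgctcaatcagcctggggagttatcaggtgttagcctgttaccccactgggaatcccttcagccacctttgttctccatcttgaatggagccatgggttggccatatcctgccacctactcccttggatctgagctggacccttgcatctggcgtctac
Il12a, later start: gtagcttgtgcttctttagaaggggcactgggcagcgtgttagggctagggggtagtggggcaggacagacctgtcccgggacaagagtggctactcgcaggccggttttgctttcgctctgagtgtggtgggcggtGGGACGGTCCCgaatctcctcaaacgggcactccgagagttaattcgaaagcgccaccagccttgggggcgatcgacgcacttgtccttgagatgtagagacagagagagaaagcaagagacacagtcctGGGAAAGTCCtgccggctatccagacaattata
Ebi3: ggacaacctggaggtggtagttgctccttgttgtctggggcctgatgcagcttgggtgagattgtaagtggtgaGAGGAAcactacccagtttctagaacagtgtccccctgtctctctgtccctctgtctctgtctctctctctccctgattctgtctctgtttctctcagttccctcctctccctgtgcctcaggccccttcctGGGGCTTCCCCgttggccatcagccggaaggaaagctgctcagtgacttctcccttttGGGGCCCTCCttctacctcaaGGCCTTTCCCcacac

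The motifs were searched on both strands. An NF-kB type pattern, GGG and CC separated by 5 bases of any kind, matched the later Il12a window at 3 places and the Ebi3 window at 4, and some of these overlap one another. It had no match in the earlier Il12a window or the Il12b window. It matched 50.8% of all 32851 promoter windows. GAGGAA, found in sites of the macrophage factor PU.1, matched the Il12b window at 2 places and the Ebi3 window at 1, against 28.3% of all windows. A repeat of GAAA after 2 bases of any kind (IRF type, 3.44% of all windows), TGANTCA (AP-1 type, 7.81%), TTNNNCAA (C/EBP type, 36.7%) and TTCNNNGAA (STAT type, 8.30%) matched none of the 4 windows. A pair of further patterns was added after the sequences were seen: GGGAATT, a shorter NF-kB type pattern, matched the Il12b window at bases -129 to -123 from the start (3.51% of all windows), and TTGCAAT, a C/EBP type core, matched it at -93 to -87 and the earlier Il12a window at -156 to -150 (2.22%). A match describes letters and not a bound site.

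Within Cd226-/-, replicate 1 differed from replicates 2 and 3. Of the principal components of log2 CPM, the first (54.4% of the variance) separated the genotypes. The second (15.5%) placed Cd226-/- replicate 1 at 29.1 and replicates 2 and 3 at -12.5 and -13.5. The WT libraries lay between, at 0.00335, -0.977 and -2.09, so this component split the Cd226-/- group. The 6 hepatocyte markers summed to 0.165, 20.7 and 20.8 CPM in Cd226-/- replicates 1 to 3 and to at most 0.136 CPM in WT. In these markers replicate 1 was thus close to WT, and replicates 2 and 3 were the libraries that differed. The subunits are therefore also given without replicate 1 and with it alone.

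All 4 subunits that could be tested were higher in Cd226-/- macrophages. Il12a, the p35 chain, rose 2.67-fold, Il27, the p28 chain, 2.14-fold, Il12b, the p40 chain shared by IL-12 and IL-23, 1.60-fold, and Ebi3, the beta chain of IL-27, 1.21-fold. Each passed the threshold of 0.05 on the p-value adjusted over all tested genes (edgeR, quasi-likelihood F-test). At the same threshold 16.1% of all tested genes were called higher and 14.8% lower (2130 and 1956 genes, against 1773 and 2764 under scaling by library size). The median log2 fold change was 0.89 over the 4 subunits and -0.0045 over all tested genes. Il23a, the p19 chain of IL-23, was close to absent in both genotypes.

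**Figure D1:**
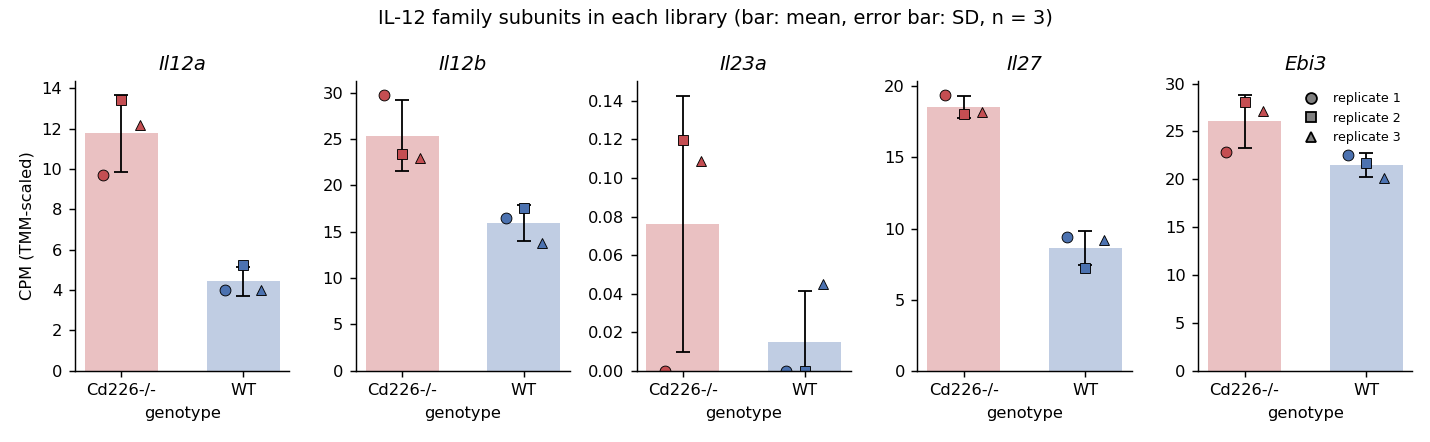
Levels of the 5 subunits in CPM (y axis, 1 scale per gene) in each Cd226-/- and WT library (x axis); bars are means, error bars SD (n = 3), and points single libraries by replicate number. The Cd226-/- points of Il12a, Il12b, Il27 and Ebi3 lie above the WT points, for Ebi3 by a narrow margin, and Il23a is at or below 0.120 CPM in all 6 libraries.

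Il12a had 176, 224 and 224 counts in Cd226-/- replicates 1 to 3 and 73, 90 and 89 counts in WT replicates 1 to 3. As CPM, counts per 1000000 of the TMM-scaled library, these are 9.70, 13.4 and 12.2 in Cd226-/- and 4.0, 5.26 and 4.03 in WT. The lowest Cd226-/- library had 1.84 times the CPM of the highest WT library. The log2 fold change was 1.42 ± 0.16 (SE), with an adjusted p of 6.09e-07 in edgeR's quasi-likelihood test, and 98.6% of all tested genes had a log2 fold change at or below it. Il12a had the largest fold change of the 4 tested subunits.

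Il12b had 540, 390 and 421 counts in Cd226-/- and 301, 301 and 305 counts in WT. The CPM were 29.8, 23.4 and 22.9 in Cd226-/- and 16.5, 17.6 and 13.8 in WT. The groups do not overlap, and within Cd226-/- replicate 1 was 1.29 times the mean of replicates 2 and 3. The log2 fold change was 0.67 ± 0.11 (SE, adjusted p = 1.24e-04 in edgeR's quasi-likelihood test), and 92.4% of all tested genes had a value at or below it.

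For Il23a the counts were 0, 2 and 2 in Cd226-/- and 0, 0 and 1 in WT. The gene therefore did not pass the filter on low counts. A count of 0 allows up to 3 counts, or 0.136 to 0.180 CPM depending on the library. The ratio of the 4 summed counts in Cd226-/- to the single count in WT, per total count, was 4.16 with an exact 95% interval of 0.412 to 205, which covers counting error only. No difference in Il23a was detectable at this depth. Without the filter its adjusted p was 0.575. Il12b was thus detected in every library beside 0 to 2 counts of the chain that is specific to IL-23.

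Il27 had 352, 301 and 334 counts in Cd226-/- and 172, 124 and 204 counts in WT. The CPM were 19.4, 18.0 and 18.2 in Cd226-/- and 9.42, 7.25 and 9.23 in WT. The Cd226-/- group was the tightest of any tested subunit (coefficient of variation 4.01%). At 301 to 352 counts per library, counting error alone can give this spread, so it is not read as a trait of Il27. The lowest Cd226-/- library had 1.91 times the CPM of the highest WT library. The log2 fold change was 1.10 ± 0.12 (SE, adjusted p = 2.57e-07 in edgeR's quasi-likelihood test), and 97.0% of all tested genes had a value at or below it. The last 103 bases of Il27 overlap Apobr, a lipoprotein receptor gene on the opposite strand. Apobr was lower in Cd226-/-, with 129 ± 3.23 CPM against 149 ± 10.9 CPM in WT (SD, n = 3 each) (adjusted p = 0.00652 in edgeR's quasi-likelihood test), so the overlapping gene moved in the other direction.

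Ebi3 had the smallest fold change of the tested subunits. It had 415, 469 and 498 counts in Cd226-/- and 412, 372 and 445 counts in WT. The CPM were 22.9, 28.1 and 27.1 in Cd226-/- and 22.6, 21.7 and 20.1 in WT. The groups do not overlap, but the lowest Cd226-/- library, replicate 1, had only 1.01 times the CPM of the highest WT library. The log2 fold change was 0.28 ± 0.093 (SE, adjusted p = 0.0266 in edgeR's quasi-likelihood test), and 79.4% of all tested genes had a value at or below it. Its call was lost when Cd226-/- replicate 2 (adjusted p = 0.139), Cd226-/- replicate 3 (0.102), WT replicate 2 (0.0537) or WT replicate 3 (0.118) was left out, or under scaling by library size (0.0751); over all alternatives its adjusted p ran between 0.00292 and 0.668. An antisense gene, Gm16712, overlaps Ebi3 and had 1 to 6 counts in Cd226-/- libraries and 5 to 8 in WT libraries.

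No overlap between genotypes, with Cd226-/- higher, was seen for 4 of the 4 tested subunits and for 22.1% of all tested genes. The genes are not replicates of one another, and their joint direction is a description. The plot of all log2 fold changes shows where each subunit stands.

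**Figure D2:**
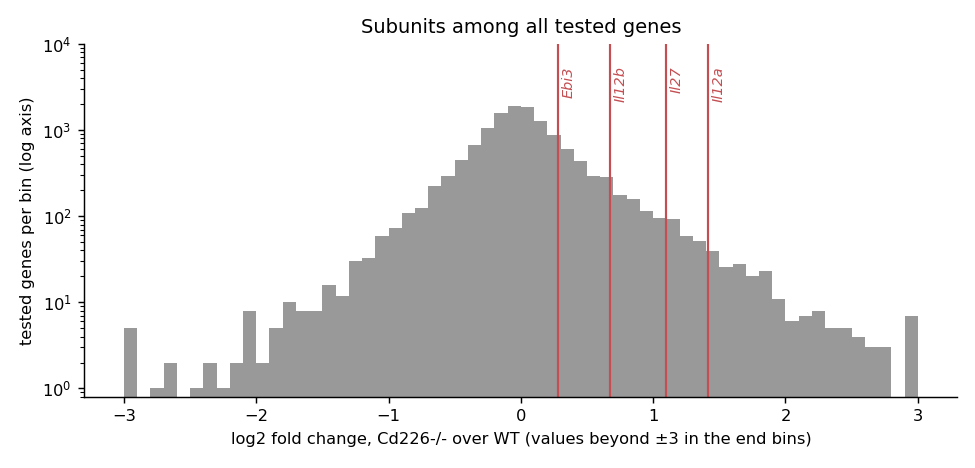
Distribution of log2 fold changes, Cd226-/- over WT (x axis), over the 13215 tested genes in bins of 0.1 (y axis, log scale, genes per bin), with the 4 tested subunits as vertical lines. Ebi3 at 0.28 lies within the bulk, with 79.4% of all tested genes at or below it. Il12b (0.67), Il27 (1.10) and Il12a (1.42) lie progressively further into the upper tail.

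Cd226-/- replicate 1 also differed from the other 2 Cd226-/- libraries in its levels of Il12a, Il12b and Ebi3. For Il27, counting error alone can give the spread among the Cd226-/- libraries. Its Il12a was 0.757 times and its Ebi3 0.828 times the mean of the other 2 Cd226-/- libraries, while its Il12b was 1.29 times and its Il27 1.07 times that mean. When replicate 1 alone stood for Cd226-/- and WT alone gave the spread, log2 fold changes were 1.14 for Il12a, 0.91 for Il12b, 1.17 for Il27 and 0.10 for Ebi3. By edgeR's quasi-likelihood test, the adjusted p in that fit was 2.08e-04 for Il12a, 1.40e-06 for Il12b, 5.44e-07 for Il27 and 0.668 for Ebi3. Without replicate 1, the values were 1.54 for Il12a, 0.54 for Il12b, 1.06 for Il27 and 0.36 for Ebi3. Il12a, Il12b and Il27 were thus higher in Cd226-/- with either choice. The Ebi3 rise was larger in replicates 2 and 3, the libraries with the hepatocyte transcripts, than in replicate 1. Its call was lost without Cd226-/- replicate 2 or 3. It was also lost without WT replicate 2 (adjusted p = 0.0537 in edgeR's test) or WT replicate 3 (0.118). Whether the hepatocyte transcripts bear on Ebi3 was not tested.

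**Figure D3:**
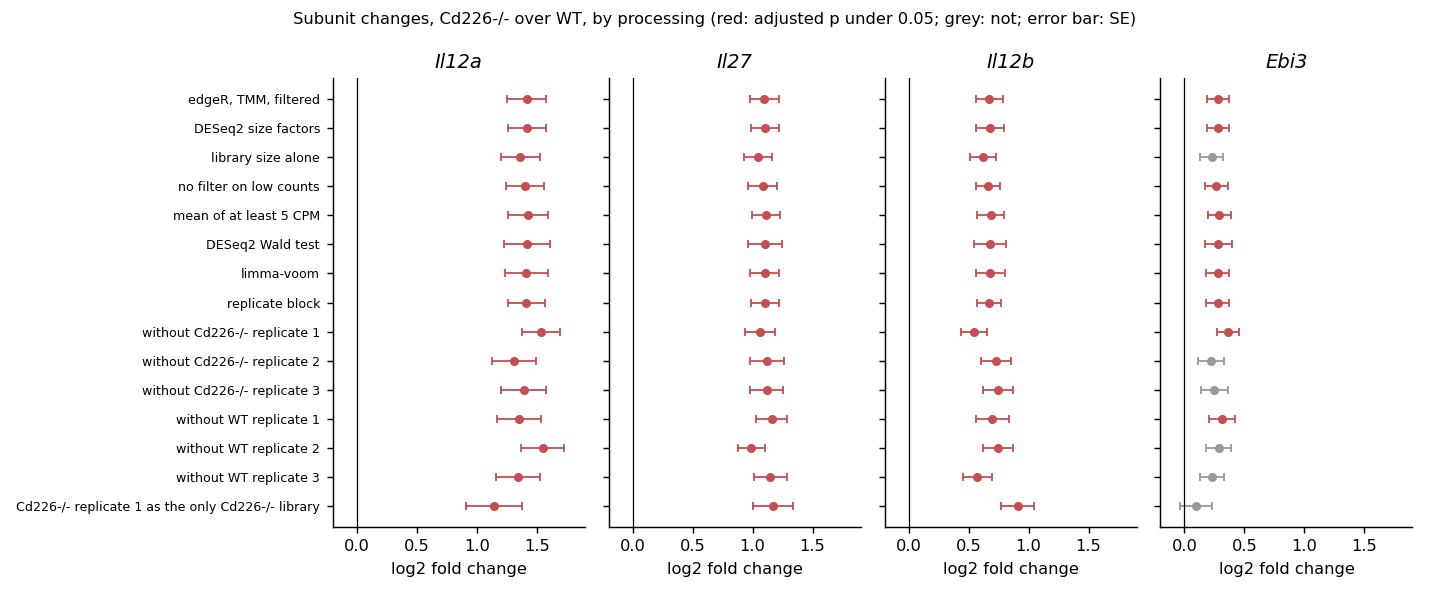
Log2 fold change of each tested subunit, Cd226-/- over WT (x axis), under each way of processing (rows; the top row is the reported one); points are estimates, bars SE, red an adjusted p under 0.05 and grey not. Il12a, Il27 and Il12b stay red in every row, and Ebi3 turns grey in 6 rows.

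Because subunits act in pairs, the counts of partner genes were set against each other within each library, a quantity that does not depend on how libraries are scaled. The Il12a to Il12b ratio, p35 over p40, was 0.326, 0.574 and 0.532 in Cd226-/- and 0.243, 0.299 and 0.292 in WT. Cd226-/- replicate 1 lay close to the WT libraries, with an exact 95% interval of 0.273 to 0.387 that takes in 2 of the 3 WT ratios. The mean log2 difference was 0.74 ± 0.27 (SE, n = 3 each). In counts, p40 thus exceeded p35 in every library, by a smaller factor in Cd226-/-.

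The Il27 to Ebi3 ratio, the 2 chains of IL-27, was 0.848, 0.642 and 0.671 in Cd226-/- and 0.417, 0.333 and 0.458 in WT, a mean log2 difference of 0.84 ± 0.18 (SE). The Il12a to Ebi3 ratio, the 2 chains of IL-35, was 0.424, 0.478 and 0.450 in Cd226-/- and 0.177, 0.242 and 0.200 in WT, a difference of 1.14 ± 0.14 (SE). In both pairs the alpha chain gained on the beta chain in all 3 Cd226-/- libraries, with no overlap between genotypes. With 3 libraries against 3, a two-sided exact permutation test cannot go below p = 0.1, which each of these 3 ratios reached (0.15 after Benjamini-Hochberg adjustment over 6 ratios). This test could therefore not put any of them under 0.05, and no other test of the ratios was run.

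The other 3 pairs were added after the values were seen. The log2 difference was 0.45 ± 0.22 (SE) for Il27 over Il12b (exact permutation p = 0.2, adjusted 0.24), 0.39 ± 0.22 for Il12b over Ebi3 (exact permutation p = 0.1, adjusted 0.15) and 0.30 ± 0.30 for Il12a over Il27 (exact permutation p = 0.3, adjusted 0.3). The libraries of the genotypes overlap for Il27 over Il12b and for Il12a over Il27. The order of the rises, Il12a above Il27 above Il12b above Ebi3, is thus not separated beyond the library spread between Il12a and Il27 or between Il27 and Il12b. For Il12b over Ebi3 the libraries did not overlap, but the margin was narrow. The lowest Cd226-/- ratio was 0.832 (replicate 2) and the highest WT ratio 0.809 (replicate 2). Without Cd226-/- replicate 1 the log2 difference of this pair was 0.18. Ratios with Il23a could not be formed, since 3 libraries had none of its reads.

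**Figure D4:**
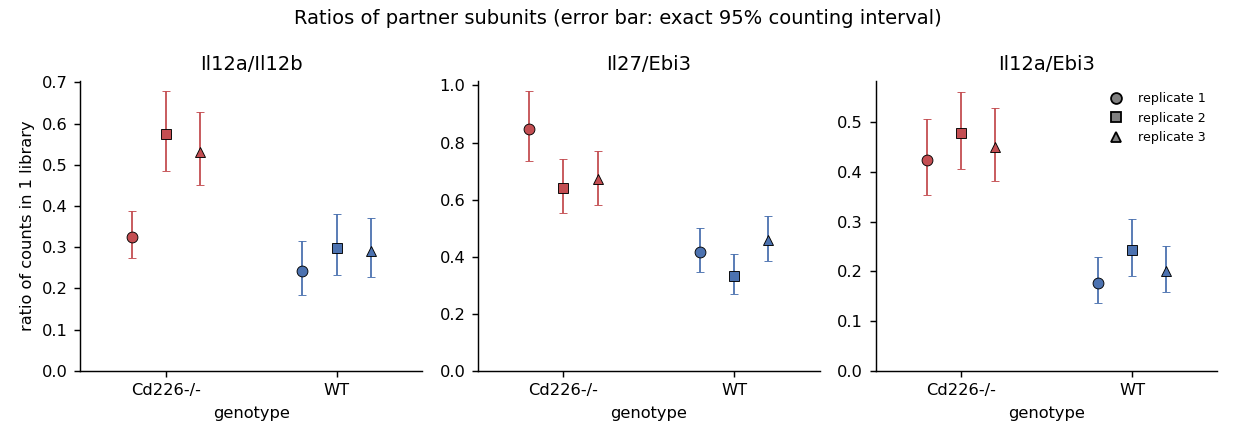
Ratio of the counts of 2 subunits in 1 library (y axis) for 3 partner pairs, by genotype (x axis); points are libraries by replicate number and bars exact 95% intervals covering counting error only. In all 3 panels the 3 Cd226-/- points lie above the 3 WT points, and for Il12a over Il12b the Cd226-/- replicate 1 (0.326) lies near the WT range of 0.243 to 0.299.

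Together the 5 subunits had 81.7, 83.1 and 80.6 CPM in Cd226-/- and 52.5, 51.8 and 47.2 CPM in WT. The make-up of this sum differed as well. Il12a gave 11.9% to 16.2% of the family's counts in Cd226-/- libraries and 7.62% to 10.1% in WT libraries, and Il27 gave 21.7% to 23.7% in Cd226-/- and 14.0% to 19.5% in WT. Ebi3 gave 28.0% to 33.8% in Cd226-/- and 41.9% to 43.0% in WT. The share of Il12b overlapped, with 28.1% to 36.4% in Cd226-/- and 29.2% to 33.9% in WT.

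To compare levels between genes, CPM were divided by the exonic length of the protein-coding transcripts, in kb. On this scale Ebi3 had the highest level, 22.6 ± 2.41 CPM per kb in Cd226-/- and 18.6 ± 1.08 in WT (SD, n = 3 each). Il27 followed with 18.2 ± 0.729 in Cd226-/- and 8.46 ± 1.18 in WT, then Il12b with 12.9 ± 1.94 in Cd226-/- and 8.11 ± 0.992 in WT, and Il12a with 8.60 ± 1.39 in Cd226-/- and 3.23 ± 0.525 in WT. Il23a came last with at most 0.0882 CPM per kb in any library. In Cd226-/- no neighbours in this order overlapped between libraries. In WT the levels of Il27 and Il12b overlapped, so these 2 genes did not differ beyond their spread.

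Genes with patterns like those of the subunits were ranked by the root mean square difference of log2 CPM over the 6 libraries. Each gene was centred on its WT mean. The ranking took in 8970 of the 9543 genes averaging 5 CPM or more and left the rest out. This is a description with no test, since likeness mostly follows the size of the change. Nearest to Il12a were Lcn2, which encodes the iron-siderophore binding protein lipocalin 2 (difference 0.119), Ikzf3, a lymphoid transcription factor gene (0.121), and Psat1, an enzyme of serine synthesis (0.123). Nearest to Il12b were Gpnmb, a membrane glycoprotein of macrophages (0.0481), Inhba, the activin A subunit (0.0573), and Nfil3 (0.0679). Nearest to Il27 were Sema7a, a semaphorin (0.0509), Il12rb1 (0.0612) and the tubulin gene Tuba1a (0.0872). Nearest to Ebi3 were the transcription factor gene Ikzf1 (0.0275), Pelo, a ribosome rescue factor (0.0314), and Zfp287 (0.0367). None of the subunits was among the 3 nearest genes of another; the closest pair of subunits was Il12b and Ebi3 (0.353), and the farthest was Il12a and Ebi3 (0.801).

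The receptor chains of the family were read from a list of 5. Il12rb1, the chain shared by the IL-12 and IL-23 receptors, and Il12rb2, the second chain of the IL-12 receptor, rose. Of the 5, 2 were called higher and none lower, against 16.1% higher and 14.8% lower of all tested genes. Il12rb1 had 24.5, 20.7 and 22.9 CPM in Cd226-/- and 11.4, 9.53 and 11.4 CPM in WT, a 2.10-fold rise (adjusted p = 1.00e-07 in edgeR's quasi-likelihood test). Il12rb2 had 9.59, 12.4 and 12.5 CPM in Cd226-/- and 5.75, 5.20 and 6.92 CPM in WT, a 1.92-fold rise (adjusted p = 4.94e-05). For both, every Cd226-/- library lay above every WT library. The other 3 chains did not pass, although every Cd226-/- library lay above every WT library for Il23r and below for Il27ra. Of all tested genes, 22.1% had no overlap with Cd226-/- higher and 22.3% with Cd226-/- lower. For Il27ra the margin was narrow, with 3.00 CPM in Cd226-/- replicate 2 and 3.12 CPM in WT replicate 3. Il23r, the chain specific to IL-23, averaged 4.83 ± 0.209 CPM in Cd226-/- and 3.45 ± 0.582 CPM in WT (SD, n = 3 each), with an adjusted p of 0.0656 in edgeR's test (0.0465 without WT replicate 1). Il27ra, the IL-27 receptor chain, averaged 2.26 ± 0.727 CPM in Cd226-/- and 3.24 ± 0.182 CPM in WT (adjusted p = 0.130 in edgeR's test, and 0.0433 when replicate 1 alone stood for Cd226-/-). Il6st, the gp130 chain shared with the IL-6 receptor, averaged 81.7 ± 5.36 CPM in Cd226-/- and 89.7 ± 2.81 CPM in WT (adjusted p = 0.0841 in edgeR's test). It was called lower under scaling by library size (0.0111) and without Cd226-/- replicate 1 (0.00761).

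Receptor kinases, STAT factors and their SOCS inhibitors mostly rose: of 8 tested, 6 were higher and none lower, beside 16.1% higher and 14.8% lower of all tested genes, with a median log2 fold change of 0.37. Stat4, the factor that transmits the IL-12 signal in lymphocytes, rose 1.73-fold to 18.6 ± 1.36 CPM in Cd226-/-, against 10.7 ± 1.62 CPM in WT (SD, n = 3 each). Jak2 rose 1.43-fold, and Socs3, a feedback inhibitor, 1.39-fold. Tyk2 did not pass, although it was called at 0.13 on the log2 scale when only genes averaging 5 CPM or more were tested (adjusted p = 0.0387 in edgeR's test). Socs1 was called (log2 fold change 0.43) but lost its call without Cd226-/- replicate 1 (adjusted p = 0.120 in edgeR's test) and when that library alone stood for Cd226-/- (0.222).

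Among 12 genes known to activate transcription of the subunits, 4 rose and 1 fell, beside 30.9% of all tested genes called in either direction, with a median log2 fold change of 0.078. Irf8, a myeloid factor that acts at Il12b, rose 1.55-fold, to 347 ± 20.2 CPM in Cd226-/-, against 224 ± 16.9 CPM in WT. Rel, the NF-kB subunit c-Rel, rose 1.26-fold and Irf1, an IFN-γ induced factor, 1.23-fold. The other calls were small and fragile: Jun had a log2 fold change of 0.16 and Nfkbiz, whose product IκBζ acts at Il12b, -0.17, and each lost its call without Cd226-/- replicate 1, Cd226-/- replicate 3, WT replicate 2 or WT replicate 3, Nfkbiz also without WT replicate 1. Rel lost its call when replicate 1 alone stood for Cd226-/- (adjusted p = 0.165 in edgeR's test). Rela, Nfkb1, Irf3, Irf5, Spi1, Cebpb and Fos did not pass, although Fos was called lower without Cd226-/- replicate 1 (log2 fold change -0.49, adjusted p = 1.05e-04 in edgeR's test) and without the filter on low counts (-0.28, 0.0117). Without Cd226-/- replicate 1, Nfkb1 was called at 0.12 and Cebpb at -0.12 on the log2 scale, and under scaling by library size Spi1 was called at -0.12 (adjusted p = 0.0482 in edgeR's test).

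Of 9 genes known to restrain the subunits or to destabilise their transcripts, 5 rose and 1 fell, beside 16.1% higher and 14.8% lower of all tested genes, with a median log2 fold change of 0.43. Nfil3, a repressor of Il12b in macrophages, had 91.2, 74.8 and 74.8 CPM in Cd226-/- and 52.2, 56.0 and 48.8 CPM in WT, a 1.54-fold rise. As for Il12b, replicate 1 was the highest Cd226-/- library. The same held for every other gene of this list except Maf, so it is not particular to Nfil3. Atf3, a repressor induced by Toll-like receptors, rose 1.40-fold, Il10ra, the IL-10 receptor chain, 1.38-fold, Maf, an activator of Il10, 1.38-fold and Zfp36, whose product tristetraprolin destabilises cytokine transcripts, 1.35-fold. Zc3h12a, the RNase Regnase-1 that degrades inflammatory transcripts, was lower, with 95.7 ± 2.59 CPM in Cd226-/- and 123 ± 4.41 CPM in WT (adjusted p = 1.30e-05 in edgeR's test). Il10 itself, the main cytokine inhibitor of IL-12, had 2.88 ± 0.892 CPM in Cd226-/- and 2.85 ± 0.142 CPM in WT and did not pass.

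Cd5l, a secreted macrophage protein reported to pair with p40, was lower in Cd226-/- (209, 189 and 181 CPM) than in WT (392, 360 and 374 CPM), with a log2 fold change of -0.96 ± 0.056 (SE, adjusted p = 2.20e-11 in edgeR's quasi-likelihood test). Among cytokines and receptors that act beside IL-12, 1 of 7 tested rose and 1 fell. Of all tested genes 16.1% were called higher and 14.8% lower. Il18, which acts with IL-12 on IFN-γ production, rose 1.63-fold, to 19.5 ± 2.09 CPM in Cd226-/-, against 11.9 ± 1.95 CPM in WT. Il6 fell, with 31.4 ± 1.53 CPM in Cd226-/- and 44.1 ± 7.13 CPM in WT. Il15, Il15ra, Il1b, Tgfb1 and Ifng did not pass, although Ifng was called lower without Cd226-/- replicate 1 (adjusted p = 0.0482 in edgeR's test). Over all lists, 22 of 42 tested genes were called, 18 higher and 4 lower, beside 30.9% of all tested genes. The lists were chosen with earlier results of these data known, and the counts are read as descriptions.

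**Figure D5:**
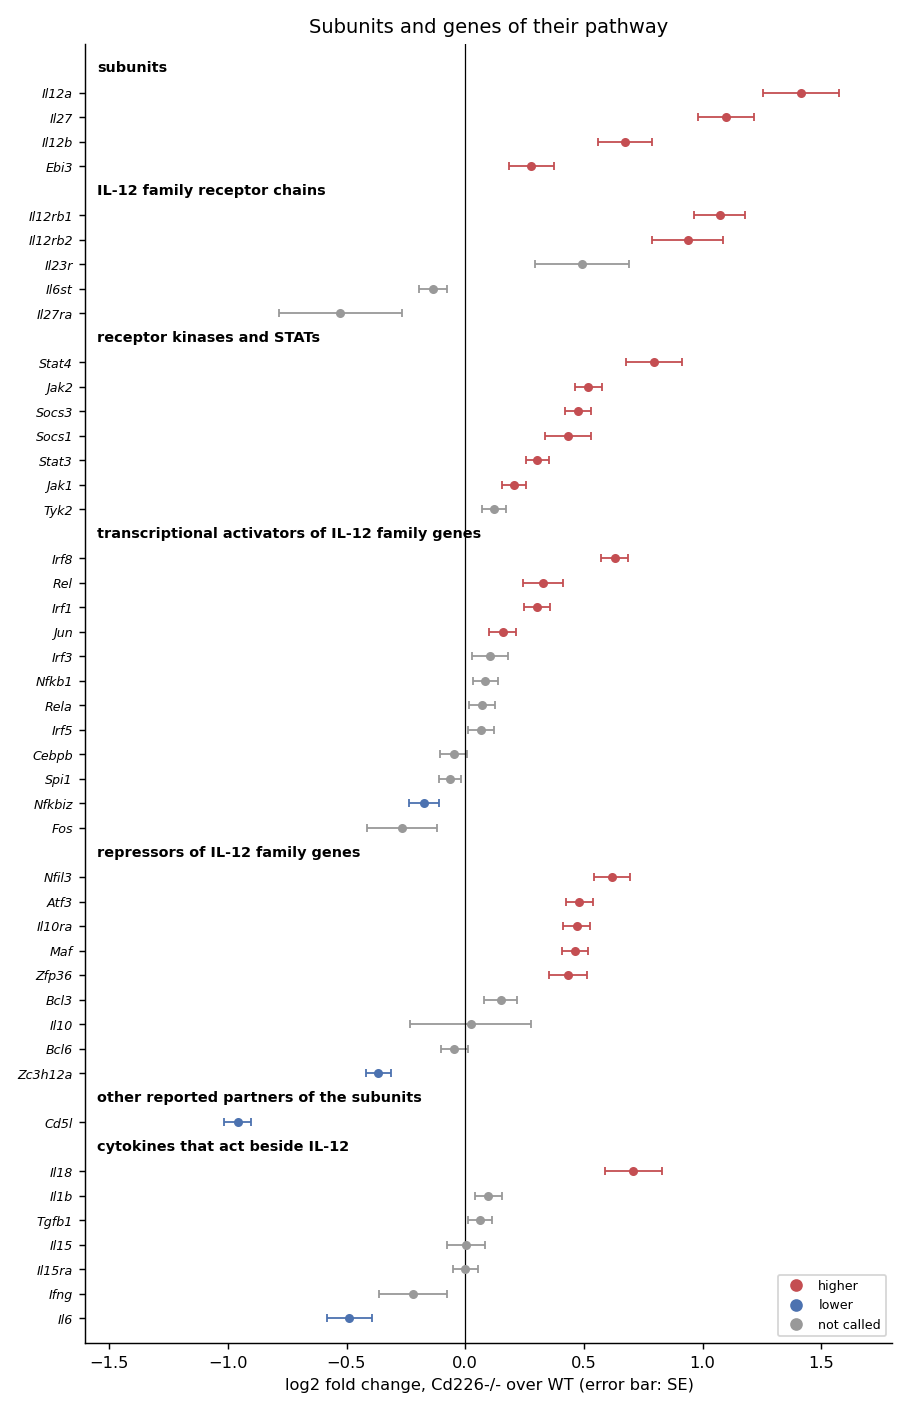
Log2 fold changes, Cd226-/- over WT (x axis), of the tested subunits and of the tested list genes reported by name (rows, ordered by value within a list); bars are SE, and colours show genes called higher, called lower or not called. Il12a and Il27 exceed 1, as does Il12rb1 at 1.07, and Cd5l at -0.96 is the lowest.

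Total counts were 16925955 to 18867799 in Cd226-/- and 16838527 to 21658061 in WT, so that 1 count was worth 0.0452 to 0.0600 CPM. Cd226 itself was near the detection limit, with 11, 10 and 8 counts in Cd226-/- and 5, 17 and 23 in WT, and did not check the genotype labels (adjusted p = 0.480 in edgeR's test). Macrophage markers were high in both genotypes, the summed level of 8 genes being 19212 to 20005 CPM in Cd226-/- and 17932 to 19895 CPM in WT, mostly from Lyz2. Of these 8, Adgre1, Cd68, Fcgr1 and Mertk were called higher and Csf1r, Itgam and Cd14 lower, beside 16.1% and 14.8% of all tested genes. Some lists of other cells also moved with genotype. The 6 B cell markers summed to 30.9 to 41.2 CPM in Cd226-/- and 13.4 to 15.7 CPM in WT, with 5 of 6 called higher, beside 16.1% of all tested genes. The 8 dendritic cell markers label another source of IL-12. They summed to 68.7 to 78.2 CPM in Cd226-/- and 42.5 to 59.4 CPM in WT, mostly from Ccr7. Of 5 tested, Ccr7 and Dpp4 were called higher, beside 16.1% of all tested genes, while Flt3, Zbtb46 and Clec9a were not. Xcr1 (0.115 CPM in Cd226-/- and 0 in WT) and Siglech (0.0200 CPM in Cd226-/- and 0 in WT) were too low to test. So was Cd209a (0.150 CPM in Cd226-/- and 0.208 CPM in WT). The 6 T and NK cell markers (4.68 to 6.26 CPM in Cd226-/- and 5.73 to 6.63 CPM in WT) and the 8 neutrophil markers (57.8 to 64.7 CPM in Cd226-/- and 49.3 to 62.6 CPM in WT) overlapped between genotypes. The part of B cells, dendritic cells and hepatocytes in the subunits' levels was not tested, and in such bulk samples more cells of a type and more RNA per cell cannot be told apart.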

How the data were processed

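RNA of 6 libraries of stimulated bone marrow-derived macrophages, 3 Cd226-/- and 3 WT, was sequenced. The authors deposited whole-number read counts per gene symbol, not normalized. HISAT2 and the build GRCm38 are named in the submitters' processing notes. The sources used here give no aligner version, counting tool, annotation or strand setting, so reads of overlapping genes on opposite strands cannot be told apart. Columns were assigned by their names, which are the library titles; 0 columns stayed unused, and every row named a gene. Libraries of a genotype differed by more than counting noise (chi-square over degrees of freedom 2.17 to 7.76), so all were kept as separate samples.

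The test was that of edgeR 4.0.16 in R 4.3.3 (filterByExpr, TMM, robust quasi-likelihood F-test, two-sided, genotype as the only term), adjusted by Benjamini-Hochberg over 13215 genes; a gene was called at an adjusted p under 0.05. SE was taken from the fold change and the F statistic. CPM use TMM-scaled library sizes. Ratios of subunits were compared by exact permutation tests over libraries. Intervals and floors cover counting error only. Gene lengths come from GENCODE M21 and promoters from RefSeq, both of the same build. Genes named were the 5 subunits, Cd226, members of the pathway lists, and for each subunit the 3 genes nearest in pattern. Some list genes are included in the counts and medians but are not reported here. The members and lists were chosen with earlier results of these data known. The alternatives were DESeq2 1.42.0 size factors and Wald test, scaling by library size, 2 other filters, limma-voom (limma 3.58.1), the replicate number as a block, left-out libraries and an adjusted p under 0.01. The steps were tested on simulated data.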

Additional observations from a re-analysis of the deposited data

How the results depend on the processing

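The rises of Il12a, Il12b and Il27 kept their direction and their call in each of 15 alternatives, with log2 fold changes of 1.14 to 1.55 for Il12a, 0.54 to 0.91 for Il12b and 0.99 to 1.17 for Il27. No reported value changed sign where it was called. Ebi3 was not called when scaled by library size (log2 fold change 0.23), with replicate 1 as the only Cd226-/- library (0.10) or at an adjusted p under 0.01 (0.28); leaving out 1 library gave 0.22 to 0.36, and 4 of these 6 fits lost the call. The number of subunits called was 3 or 4 throughout. Across the table, 1167 genes were called lower at an adjusted p under 0.01, against 1956 at 0.05, and scaling by library size gave 1773 higher and 2764 lower, against 2130 higher and 1956 lower with TMM. The cause of these changes was not tested. Same-numbered libraries did not deviate together (correlations 0.0105, -0.0128 and 0.0151 for replicates 1 to 3), so the number pairs no samples by the data; with the replicate block the log2 fold changes were 1.41 for Il12a, 0.67 for Il12b, 1.10 for Il27 and 0.28 for Ebi3, all called. The log2 differences of the ratios ranged, over left-out libraries, from 0.59 to 1.00 for Il12a over Il12b, 0.71 to 0.94 for Il27 over Ebi3, and 1.03 to 1.26 for Il12a over Ebi3. Of the 22 called pathway genes 18 kept their call in 14 alternatives, and Socs1, Rel, Nfkbiz and Jun lost it in at least 1. Depth limits Il23a, with 5 counts in all.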
